A study of Mus musculus with 4 samples.

Results

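The 10 genes described here belong to the TGF-beta pathway of mouse dendritic cells. They are the ligand genes Tgfb1 and Inhba, the receptor genes Tgfbr1 and Tgfbr2, the signal transducers Smad2, Smad3 and Smad4, the inhibitor Smad7, the co-repressor Ski and the target gene Tgfbi. They were taken by name, as every probe set annotated to 1 of these symbols alone, which gave 20 of the 22690 probe sets on the array. All 10 were among the 9473 genes measured, out of 12393 genes named by the array.

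Gene expression was measured on arrays in cells labelled CD11c+ and as dendritic cells, which present antigen to T cells. The genotype label is IL10-/- in all groups, so the media control, like the stimulated cells, came from animals deficient in the anti-inflammatory cytokine IL-10. The groups were cells held for 6 h in medium with nothing added (MEDIA) or given SEA, LPS or both agents (SEA/LPS), each group on 1 array. LPS is lipopolysaccharide, a bacterial outer membrane component sensed through TLR4, and the labels do not expand SEA. Strain, age, doses, the tissue the cells came from and any pooling of animals are not given in the labels. With 1 array per group there is no replicate error and no test, every difference below is one of size alone, and neighbouring levels in an order cannot be told apart from array to array variation.

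TGF-beta and activin dimers bind a pair of type I and type II serine/threonine kinase receptors on the cell surface. The type I receptor phosphorylates Smad2 and Smad3, which join Smad4, enter the nucleus and set target gene transcription. Smad7 blocks the activated receptor, and Ski binds the Smad complex and represses its targets. In dendritic cells TGF-beta is known for restraining maturation and for its part in the tolerogenic state and in Langerhans cell development.

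Values are the authors' array signals (intensities on a linear scale), already scaled to the same trimmed mean on every array. A floor was set at 33.3, the 40th percentile over the 4 arrays, and lower signals were raised to it, so a log2 difference below is between floored signals and 1 array at the floor makes it a lower bound. Genes counted as higher or lower differed by 2-fold or more, the brighter of the arrays being above the floor. The arrays were alike in median signal (45.0 to 53.2) and in the share of probe sets above the floor (57.3% to 61.1%). For Gapdh the signal at the 3' end over that at the 5' end, which reports RNA integrity, ran from 2.21 in MEDIA to 3.12 with SEA/LPS. For b-Actin the same ratio was 1.20 in MEDIA, 1.37 under SEA, 1.24 under LPS and 1.26 under SEA/LPS, so it was highest under SEA. The 18 hybridisation control probe sets were brighter by 0.55 log2 with LPS than with MEDIA, and scaling the arrays to them moved the median LPS over MEDIA difference of all genes from -0.06 to -0.56. The probe set of Il10, the gene altered in these animals, read 37.9, 52.1, 304 and 93.0 in the order MEDIA, SEA, LPS and SEA/LPS, but where it lies against the alteration is not known here, so it checks nothing about the labels.

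Dendritic cell markers were present. All 10 dendritic cell markers lay above the floor on at least 1 array and 9 of 10 on all 4, and Itgax, which encodes CD11c, read 2732 in MEDIA, 2181 under SEA, 1851 under LPS and 2093 under SEA/LPS. The summed signal of the dendritic cell list was 28838, 29933, 36496 and 27521 in that order of groups, most of it from H2-Aa, H2-Ab1, H2-Eb1 and Cd74. Other markers of the list were faint, with Flt3 at 62.2, 48.7, 40.2 and 30.7 and Zbtb46 at 88.9, 77.9, 82.4 and 104.5. Macrophage markers, many of which cultured dendritic cells share, were above the floor on some array for 7 of 7 named genes and summed to 9360, 10854, 12023 and 12182. Of 8 fibroblast or stroma markers 3 passed the floor on some array, Col3a1, Dcn, Lum, Pdgfra and Pdgfrb were at the floor on all 4, and the sums were 208, 310.5, 288 and 206. Of 6 T cell markers 2 passed, with Cd3e, Cd3d, Cd3g and Cd4 at the floor throughout and sums of 105, 123, 164 and 96.1. B cell markers (3 of 5, with Cd79b and Pax5 at the floor) summed to 204, 215, 206 and 153, neutrophil markers (4 of 6, with S100a9 and Camp at the floor) to 255, 294, 379 and 407, and NK cell markers (5 of 5) to 218, 214, 283.5 and 259. Platelet or megakaryocyte markers were above the floor on all arrays for 6 of 6 named genes, and summed to 4040, 4777, 2752 and 3341, of which Pf4 alone gave 2920, 3394.5, 2020 and 2431. The part of other cell types in the results below was not tested, and in bulk RNA fewer cells of a type and less RNA per cell cannot be told apart.

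The LPS and MEDIA arrays differed by 2-fold or more at 5 of the 10 genes. Inhba, the activin A subunit, was 12.5-fold higher with LPS than with MEDIA, while Ski was 7.48-fold, Tgfbi 3.41-fold, Tgfbr1 2.58-fold and Tgfbr2 2.27-fold lower. Tgfb1, Smad2, Smad4 and Smad7 stayed within 2-fold in all 5 comparisons, and Smad3 lay too near the floor to be placed. With SEA alone none of the 10 passed 2-fold, and with SEA added to LPS 1 did, Tgfbi, which was 2.69-fold higher than with LPS alone. In LPS over MEDIA 1 of 10 members was higher and 4 were lower, beside 6.06% of all measured genes that were higher and 8.43% that were lower. The median member difference was -0.21 log2, against -0.06 over all genes.

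**Figure D1:**
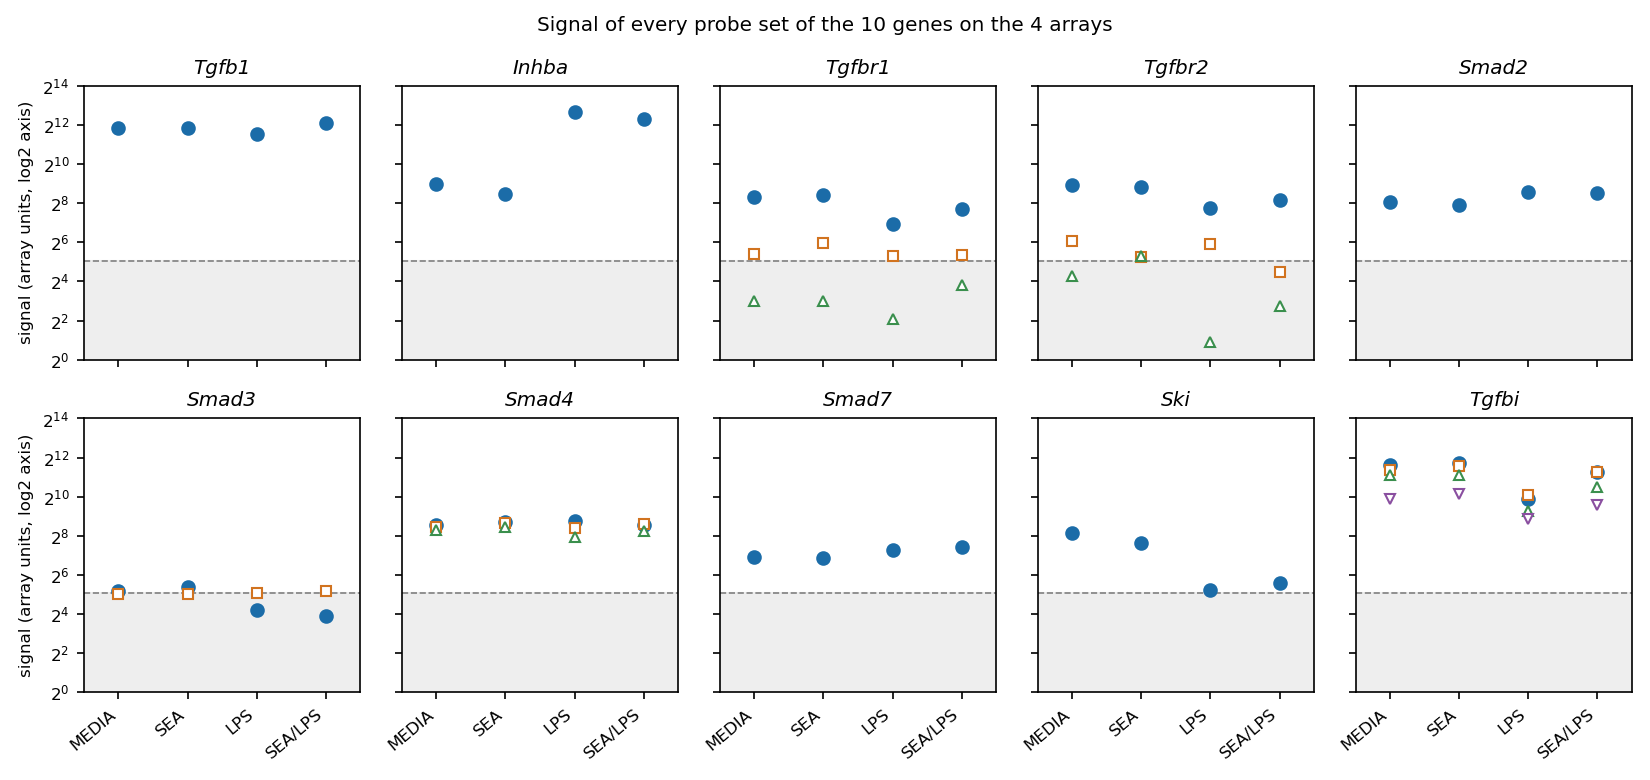
Signal of each probe set of the 10 genes (y, array units on a log2 axis) on each of the 4 arrays (x), with 1 panel per gene. Filled circles are the probe set used for the gene, open symbols its other probe sets, and the shaded area below the dashed line lies under the floor of 33.3. Inhba stands highest on the LPS and SEA/LPS arrays, Ski stands lowest on them, and the 4 probe sets of Tgfbi dip together on the LPS array.

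The ligand genes behaved differently from each other. Inhba encodes the beta A chain, which pairs with itself to form activin A and with the alpha chain to form inhibin A. Its single probe set read 513.5 in MEDIA, 361 under SEA, 6431 under LPS and 5170.2 under SEA/LPS. Both arrays with LPS lay far above both arrays without it, and the order from high to low was LPS, SEA/LPS, MEDIA, SEA. The log2 difference was 3.65 for LPS over MEDIA, which ranked 37th from the highest of 9473 genes, 3.84 for SEA/LPS over SEA and 3.33 for SEA/LPS over MEDIA. SEA gave a difference of -0.51 without LPS and -0.31 with it, so the SEA array and the SEA/LPS array each read under their own control, within 2-fold.

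Tgfb1, the ligand that dendritic cells, platelets and many other cells make, read 3712 in MEDIA, 3721 under SEA, 3030.3 under LPS and 4340.4 under SEA/LPS. The highest array was 1.43-fold above the lowest, and the lowest was LPS. The differences were 0.00 for SEA over MEDIA, -0.29 for LPS over MEDIA and 0.52 for SEA/LPS over LPS, the last of which ranged from 0.52 to 0.76 over 8 other processing settings. Platelet markers, named above because platelets are a rich source of this ligand, also summed lowest with LPS. Most of that sum came from Pf4 and Ppbp, which were both lowest with LPS. The rest of the list did not share this: Itga2b (152.4) and Gp1bb (91.8) read highest with LPS, Gp9 lowest with SEA and Gp5 lowest with SEA/LPS. The part of platelets in the Tgfb1 signal was not tested. Secreted TGF-beta is latent and has to be activated, which transcript levels do not report.

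For the start of the Inhba transcript, RefSeq's window from 250 bases before to 50 after it (GRCm38.p6, chr13:16011601-16011900, plus strand) is shown because this was the member with the largest difference. In this and the following windows capitals mark the pentamer GTCTG, the core of the box that Smad3 and Smad4 bind, sought on both strands.
Inhba: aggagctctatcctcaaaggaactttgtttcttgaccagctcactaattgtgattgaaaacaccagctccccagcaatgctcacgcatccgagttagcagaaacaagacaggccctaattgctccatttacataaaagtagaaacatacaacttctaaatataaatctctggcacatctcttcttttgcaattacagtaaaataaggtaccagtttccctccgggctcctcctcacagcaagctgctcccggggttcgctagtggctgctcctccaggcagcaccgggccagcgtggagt
The Inhba window holds no GTCTG, which occurs in 49.6% of 32851 promoter windows of the same length, and none of the other motifs sought. Those were the palindromic Smad element GTCTAGAC (0.213% of windows), the AP-1 site TGANTCA (7.81%), the CRE TGACGTCA (1.79%), a kappaB core GGNNTTTCC (5.82%) and the E-box CACGTG (7.15%), each on both strands and with overlaps allowed. Its GC content was 47.7% and it held 7 CpG, close to the medians of all windows (52.7% and 7).

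The receptor genes were lower with LPS on their brightest probe sets. Tgfbr1 encodes the type I receptor ALK5, and its probe set read 321 in MEDIA, 349 under SEA, 124.5 under LPS and 208 under SEA/LPS. The order was SEA, MEDIA, SEA/LPS, LPS, with the SEA/LPS array between the LPS array and the arrays without LPS. The differences were -1.37 for LPS over MEDIA, 0.74 for SEA/LPS over LPS and -0.75 for SEA/LPS over SEA. Tgfbr2 encodes the type II receptor, which binds the ligand first, and read 494 in MEDIA, 464 under SEA, 218 under LPS and 290.1 under SEA/LPS. Again the LPS array was lowest and the SEA/LPS array next. Its differences were -1.18 for LPS over MEDIA, 0.41 for SEA/LPS over LPS and -0.68 for SEA/LPS over SEA.

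Other probe sets of the receptors did not show the same size. For Tgfbr1, a dimmer probe set read 42.3, 62.8, 39.4 and 40.4 in the order MEDIA, SEA, LPS and SEA/LPS, a difference of -0.10 for LPS over MEDIA, and the remaining one was below the floor on all arrays. For Tgfbr2, a dimmer probe set read 67.7, 38.2, 59.5 and 22.0, a difference of -0.19 for LPS over MEDIA and, against an array at the floor, at least 1.02 log2 lower for SEA/LPS over MEDIA. The last Tgfbr2 probe set was above the floor with SEA alone, at 39.9. When all probe sets of a gene were averaged, LPS over MEDIA was -0.49 for Tgfbr1 and -0.46 for Tgfbr2, so neither receptor passed 2-fold under that setting. The Tgfbr2 promoter window held 1 GTCTG at 160 bases before the start and 1 kappaB core at 29 bases after it. Of the 2 Tgfbr1 windows the upstream one held neither and the other held 1 GTCTG at 203 bases before its start. The Smad3 window also held 1 kappaB core, 17 bases before its start, and the Tgfb1 window held none of the motifs sought.

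Smad2, Smad4 and Smad7 differed by less than 2-fold between groups. Smad2, a receptor-activated Smad, read 265 in MEDIA, 238 under SEA, 385 under LPS and 374 under SEA/LPS, which put both LPS arrays above both others by a small margin (0.54 for LPS over MEDIA and 0.65 for SEA/LPS over SEA). Smad4, the common partner, had 3 probe sets above the floor on all arrays, and the brightest read 369, 424, 428 and 377 in the order MEDIA, SEA, LPS and SEA/LPS. Its LPS over MEDIA difference was 0.21 on that probe set and -0.06 and -0.35 on the others, so the probe sets did not share a direction. Smad7, the inhibitory Smad, which TGF-beta itself induces, read 122 in MEDIA, 118 under SEA, 153 under LPS and 173 under SEA/LPS, the SEA/LPS array being highest (0.33 for LPS over MEDIA and 0.51 for SEA/LPS over MEDIA). Under scaling to the hybridisation controls the LPS over MEDIA difference was -0.01 for Smad2, -0.34 for Smad4 and -0.22 for Smad7, so none of these LPS over MEDIA differences kept its direction.

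Smad3, the other receptor-activated Smad, was near the floor on every array. Its better probe set read 36.3 in MEDIA, 41.4 under SEA, 18.3 under LPS and 15.0 under SEA/LPS, and the other read 32.6, 32.8, 33.0 and 36.2. The arrays with LPS were below the floor on the first, which bounds the LPS over MEDIA difference at 0.12 log2 lower or more, and the second did not show it. No order of levels can be read at this signal.

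Ski had the largest negative difference among the members. It encodes a nuclear proto-oncoprotein that binds Smad2, Smad3 and Smad4 and recruits histone deacetylase complexes to their targets. Its single probe set read 283.5 in MEDIA, 201 under SEA, 37.9 under LPS and 48.0 under SEA/LPS. Both LPS arrays were just above the floor and both other arrays at least 4-fold above them. LPS over MEDIA was -2.90 and ran from -3.34 to -2.47 over 8 other settings, SEA/LPS over SEA was -2.07 and SEA/LPS over MEDIA was -2.56. SEA gave -0.50 without LPS and 0.34 with it, and the latter was 0.00 with a floor at the 50th percentile, since both LPS arrays then lay under the floor. All these sizes rest on LPS readings close to the floor and are approximate, and Ski was named by this probe set alone.

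The start of Ski lies on the minus strand (GRCm38.p6, chr4:155222486-155222785) and is shown as the window of the lowest member.
Ski: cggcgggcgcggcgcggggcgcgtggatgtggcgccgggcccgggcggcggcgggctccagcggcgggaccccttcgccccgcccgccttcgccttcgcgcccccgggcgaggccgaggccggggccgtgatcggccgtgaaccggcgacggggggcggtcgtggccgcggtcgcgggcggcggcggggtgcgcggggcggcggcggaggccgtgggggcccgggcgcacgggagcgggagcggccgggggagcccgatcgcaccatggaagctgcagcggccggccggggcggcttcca
It was GC-rich at 85.3% with 59 CpG, and held none of the 6 motifs.

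Tgfbi, the secreted matrix protein named for its induction by TGF-beta, was the only member past 2-fold in SEA/LPS over LPS. The probe set used read 3163 in MEDIA, 3378 under SEA, 927 under LPS and 2494 under SEA/LPS. The LPS array stood alone at the bottom and the SEA/LPS array lay near the arrays without LPS. Its differences were -1.77 for LPS over MEDIA, 1.43 for SEA/LPS over LPS and -0.34 for SEA/LPS over MEDIA. On this probe set the SEA difference was 1.33 log2 larger with LPS than without, where it was 0.09. On the other Tgfbi probe sets it was larger with LPS by 1.26, 1.04 and 0.47.

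All 4 Tgfbi probe sets gave this order of LPS against the other arrays. A probe set not marked as able to cross-hybridise read 2231 in MEDIA, 2174 under SEA, 615 under LPS and 1433 under SEA/LPS. The remaining pair, marked as able to cross-hybridise like the one used, read 2652, 2999, 1067 and 2473 for the brighter and 925.5, 1110.4, 456 and 757 for the dimmer. LPS over MEDIA ran from -1.86 to -1.02 over the 4 probe sets, and SEA/LPS over LPS from 0.73 to 1.43. The dimmest was thus the 1 of 4 that stayed under 2-fold for SEA/LPS over LPS. Probe sets of 1 gene share the RNA and the array, so their accord does not stand in for replicates.

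The Tgfbi window (GRCm38.p6, chr13:56609336-56609635, plus strand) is shown because this gene is a TGF-beta target and carries the SEA/LPS difference.
Tgfbi: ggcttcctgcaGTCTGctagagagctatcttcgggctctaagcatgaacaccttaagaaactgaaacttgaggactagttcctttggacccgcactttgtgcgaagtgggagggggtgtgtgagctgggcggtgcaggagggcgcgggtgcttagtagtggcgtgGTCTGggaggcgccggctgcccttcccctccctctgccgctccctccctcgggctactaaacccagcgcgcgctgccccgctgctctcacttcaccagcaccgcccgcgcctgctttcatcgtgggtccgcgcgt
It held GTCTG at 2 places, 239 and 85 bases before the start, and no other motif sought. A match is a description of the letters, not of binding.

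**Figure D2:**
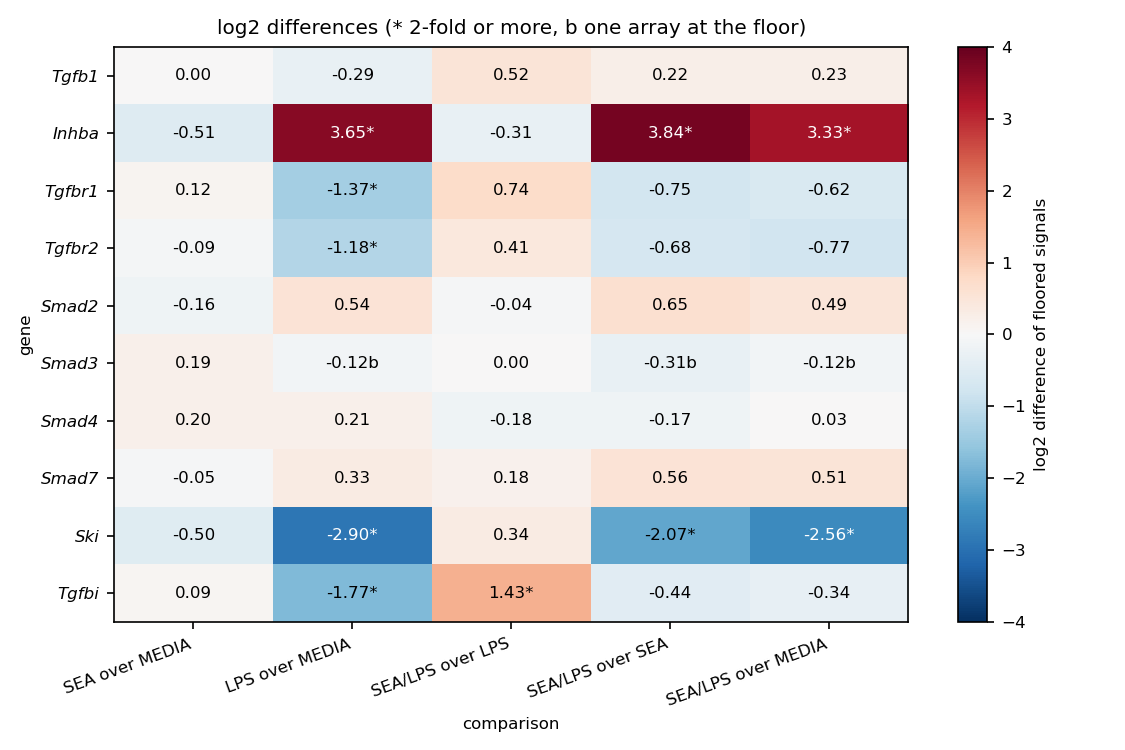
Log2 differences of floored signals for each gene (rows) in each of the 5 comparisons (columns), with red for higher and blue for lower. A star marks 2-fold or more and b marks a bound from 1 array at the floor. LPS over MEDIA holds 5 starred genes, SEA/LPS over LPS holds Tgfbi, and SEA over MEDIA holds none.

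On the probe sets used, the members read within 2-fold of MEDIA on the SEA array. None of the 10 was higher and none lower by 2-fold, where 0.644% of all measured genes were higher and 0.633% lower. On these probe sets the widest differences were those of Inhba (-0.51) and Ski (-0.50), and the rest lay between -0.16 and 0.20. Dimmer probe sets of the receptors gave wider ones, -0.83 for Tgfbr2 and 0.57 for Tgfbr1. The median was -0.02, against 0.00 over all genes.

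SEA/LPS over LPS compares LPS-treated cells with and without SEA. Of 10 members 1 was higher and 0 lower, beside 1.39% and 3.47% of all genes. On the probe sets used, the 4 members that were lower with LPS than with MEDIA read above their LPS level with SEA/LPS, by 1.43 for Tgfbi, 0.74 for Tgfbr1, 0.41 for Tgfbr2 and 0.34 for Ski. For Tgfbr2 the sign turned to -0.14 with all probe sets averaged, a dimmer probe set having read 59.5 with LPS and 22.0 with SEA/LPS, and for Ski the difference was 0.00 with a floor at the 50th percentile. The LPS array enters both this comparison and LPS over MEDIA, so an opposite sign in the pair can come from that array alone. SEA/LPS over SEA and SEA/LPS over MEDIA do not use it. In SEA/LPS over SEA 1 member was higher (Inhba) and 1 lower (Ski), where 4.67% of genes were higher and 6.38% lower. SEA/LPS over MEDIA gave the same count with the same genes, where 4.54% were higher and 7.05% lower. Without the LPS array, then, Inhba and Ski kept differences past 2-fold against cells without LPS, and Tgfbi (-0.34), Tgfbr1 (-0.62) and Tgfbr2 (-0.77) read lower than MEDIA by less than 2-fold.

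**Figure D3:**
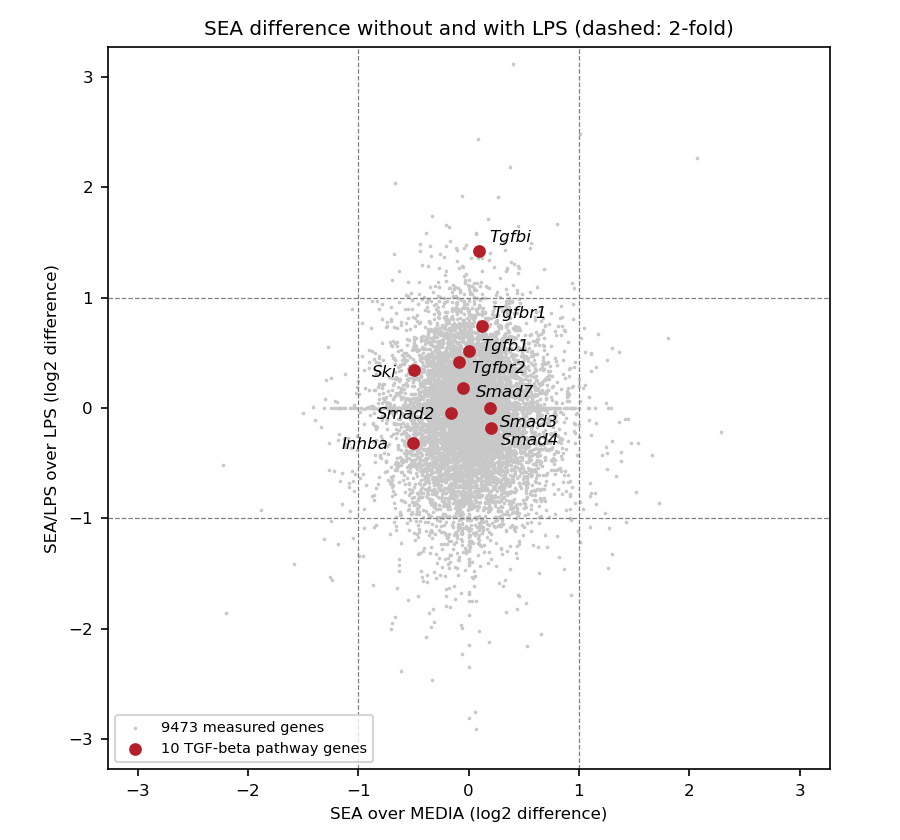
Log2 difference made by SEA without LPS (x, SEA over MEDIA) and with LPS (y, SEA/LPS over LPS), which share no array. Grey points are the 9473 measured genes, red points the 10 pathway genes, and dashed lines mark 2-fold. Tgfbi lies above the upper line at 1.43 and the other 9 lie within the dashed square.

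Other genes of the pathway were read from 7 lists holding 77 genes (69 with a probe set, 58 measured). In LPS over MEDIA 9 of the 58 were higher and 2 lower, where 6.06% of all measured genes were higher and 8.43% lower, with a median of 0.27 against -0.06 over all genes. Under scaling to the hybridisation controls the count was 5 higher and 5 lower and the median -0.23, against -0.56 over all genes. The lists were chosen with results of these data known, and nothing particular to them is read from these counts.

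Among extracellular regulators 3 of 10 were higher with LPS and 0 lower, where 6.06% of all measured genes were higher and 8.43% lower. Fst, follistatin, which binds and neutralises activin, read 310.5 in MEDIA, 329 under SEA, 4443 under LPS and 4179 under SEA/LPS. It was 14.3-fold higher for LPS over MEDIA and 12.7-fold higher for SEA/LPS over SEA, so the activin chain and its antagonist were both high on the same arrays. Itgav, the integrin alpha V chain of receptors that activate latent TGF-beta, read 273 in MEDIA, 262 under SEA, 1055 under LPS and 511 under SEA/LPS. It was 3.86-fold higher with LPS than with MEDIA, and SEA/LPS over LPS was -1.05 (-0.98 and -0.81 when scaled to the 75th percentile and to the hybridisation controls). Fstl1, a follistatin-like protein, read 15.2 (under the floor) in MEDIA and 86.5 under LPS, at least 2.60-fold higher (0.78 log2 with a floor at the 50th percentile and 0.69 with all probe sets averaged), and its SEA/LPS over LPS difference of -1.11 stayed past 2-fold in 3 of 8 other settings. Thbs1, thrombospondin, another activator of latent TGF-beta and the brightest of the list, read 2793, 3451, 4064.5 and 4125 in the order MEDIA, SEA, LPS and SEA/LPS.

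Modulators of receptors and Smads had 2 of 10 genes higher with LPS and 0 lower, beside the same 6.06% and 8.43% of all genes. Pmepa1, a transmembrane protein that TGF-beta induces and that sequesters receptor-activated Smads, read 33.5 in MEDIA, 51.1 under SEA, 427 under LPS and 779 under SEA/LPS. The MEDIA reading was just above the floor, and LPS over MEDIA was 3.67 and SEA/LPS over MEDIA 4.54. Another Pmepa1 probe set read 28.1, 93.8, 252 and 383, in the same order of arrays, and the remaining one was above the floor with SEA/LPS alone. Nedd4l, a ubiquitin ligase for activated Smads, read 102, 117, 272 and 131, higher with LPS alone by 1.41 (0.86 under scaling to the hybridisation controls and 0.70 with all probe sets averaged). Its SEA/LPS over LPS difference of -1.06 stayed past 2-fold in 2 of the 7 other settings that gave a value. Fkbp1a, which binds the type I receptor, was the brightest of the list and differed by -0.11 for LPS over MEDIA.

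Receptors, Smads, ligands and co-repressors outside the 10 genes were read in the same way. Beside them, 6.06% of all measured genes were higher and 8.43% lower in LPS over MEDIA. These lists are short, and nothing particular to them is read from their counts. Of 9 other receptors Acvr1, a type I receptor for activin and BMP ligands, was 2.15-fold higher with LPS. That difference was 0.55 log2 under scaling to the hybridisation controls, 0.92 without a floor and 0.75 with all probe sets averaged. Its other probe sets, of like brightness, gave 0.34 and 0.80. Acvr1b, the type I receptor for activin, read 241, 235, 256 and 236 in the order MEDIA, SEA, LPS and SEA/LPS. Eng, endoglin, a co-receptor, was below the floor with SEA alone (59.1, 14.6, 90.5 and 80.1), and SEA/LPS over SEA was at least 2.41-fold higher (0.67 log2 with a floor at the 50th percentile and 0.99 with all probe sets averaged). None of 7 other ligands and none of 3 other Smads passed 2-fold in LPS over MEDIA with signals floored. Tgfb2, another TGF-beta ligand, named after its values were seen, read 4.0 in MEDIA, 4.4 under SEA, 57.0 under LPS and 52.5 under SEA/LPS, which bounds LPS over MEDIA at no less than 1.71-fold higher, so a difference past 2-fold could not be told from a smaller one. Its other probe sets gave 0.42 and 0.00 log2 for LPS over MEDIA with signals floored. The brightest of these lists were Inhbb, the activin beta B chain (0.16), and Smad1, which transduces BMP signals (0.22). Skil, a close relative of Ski, differed from it in direction: it read 361 in MEDIA, 699 under SEA, 646 under LPS and 1370 under SEA/LPS. That is 0.84 for LPS over MEDIA, 0.95 for SEA over MEDIA, 1.08 for SEA/LPS over LPS (0.96 under quantile normalization and 0.42 with all probe sets averaged) and 1.92 for SEA/LPS over MEDIA. A dimmer Skil probe set read 55.8, 40.9, 95.3 and 81.0, higher with LPS by 0.77, but its SEA over MEDIA difference was -0.45 and its SEA/LPS over LPS difference -0.23, opposite in sign to the brighter one.

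Known target genes were split. Of 14 measured, 3 were higher with LPS and 2 lower, where 6.06% of all measured genes were higher and 8.43% lower. Tsc22d1 was higher by 2.31 (1.04 with all probe sets averaged), Cited2 by 1.46 and Timp1 by 1.22 (0.91 and 0.67 under scaling to the hybridisation controls). Klf10 was lower (-1.79), as was Id3 (at least 2.39-fold, and -0.66 with a floor at the 50th percentile). Klf10, an early TGF-beta response gene, read 216 in MEDIA, 134 under SEA, 62.7 under LPS and 139.8 under SEA/LPS, lowest on the LPS array as Tgfbi was, and its SEA/LPS over LPS difference was 1.16 (0.99 without a floor). Cdkn2b, a cell cycle inhibitor that TGF-beta induces, read 387, 489, 237 and 502 in the same order of groups, with 1.08 for SEA/LPS over LPS (0.98 under quantile normalization). Tsc22d1 read 107, 130.3, 529 and 269. Id1 and Id3, inhibitors of basic helix-loop-helix factors and targets of BMP signals, were both lower with SEA/LPS than with SEA (-1.16, past 2-fold in 3 of the 7 other settings that gave a value, and at least 3.44-fold). Cdkn1a (1.30), Vegfa (1.30, and 0.58 on its other probe set) and Cited2 (1.59) were higher in that comparison. Runx3, a transcription factor that mediates TGF-beta responses in dendritic cells, read 156 in MEDIA, 25.4 under SEA, 175 under LPS and 122 under SEA/LPS. On the probe sets used it was the only one of the 58 past 2-fold in SEA over MEDIA, at least 4.68-fold lower. In SEA/LPS over SEA it was at least 3.67-fold higher. A Pmepa1 probe set not used, under the floor in MEDIA, was higher by at least 1.49 log2 in SEA over MEDIA. Fn1, fibronectin, the brightest of the targets, differed by 0.22 for LPS over MEDIA.

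Over all 7 lists SEA/LPS over LPS had 3 of 58 genes higher and 3 lower, beside 1.39% and 3.47% of all measured genes, and a median of -0.09 against -0.01. SEA/LPS over SEA had 8 higher and 2 lower, beside 4.67% and 6.38%, and a median of 0.23 against -0.15. SEA/LPS over MEDIA had 7 higher and 2 lower, beside 4.54% and 7.05%, and a median of 0.20 against -0.12. SEA over MEDIA had 0 higher and 1 lower, beside 0.644% and 0.633%, and both medians were 0.00.

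**Figure D4:**
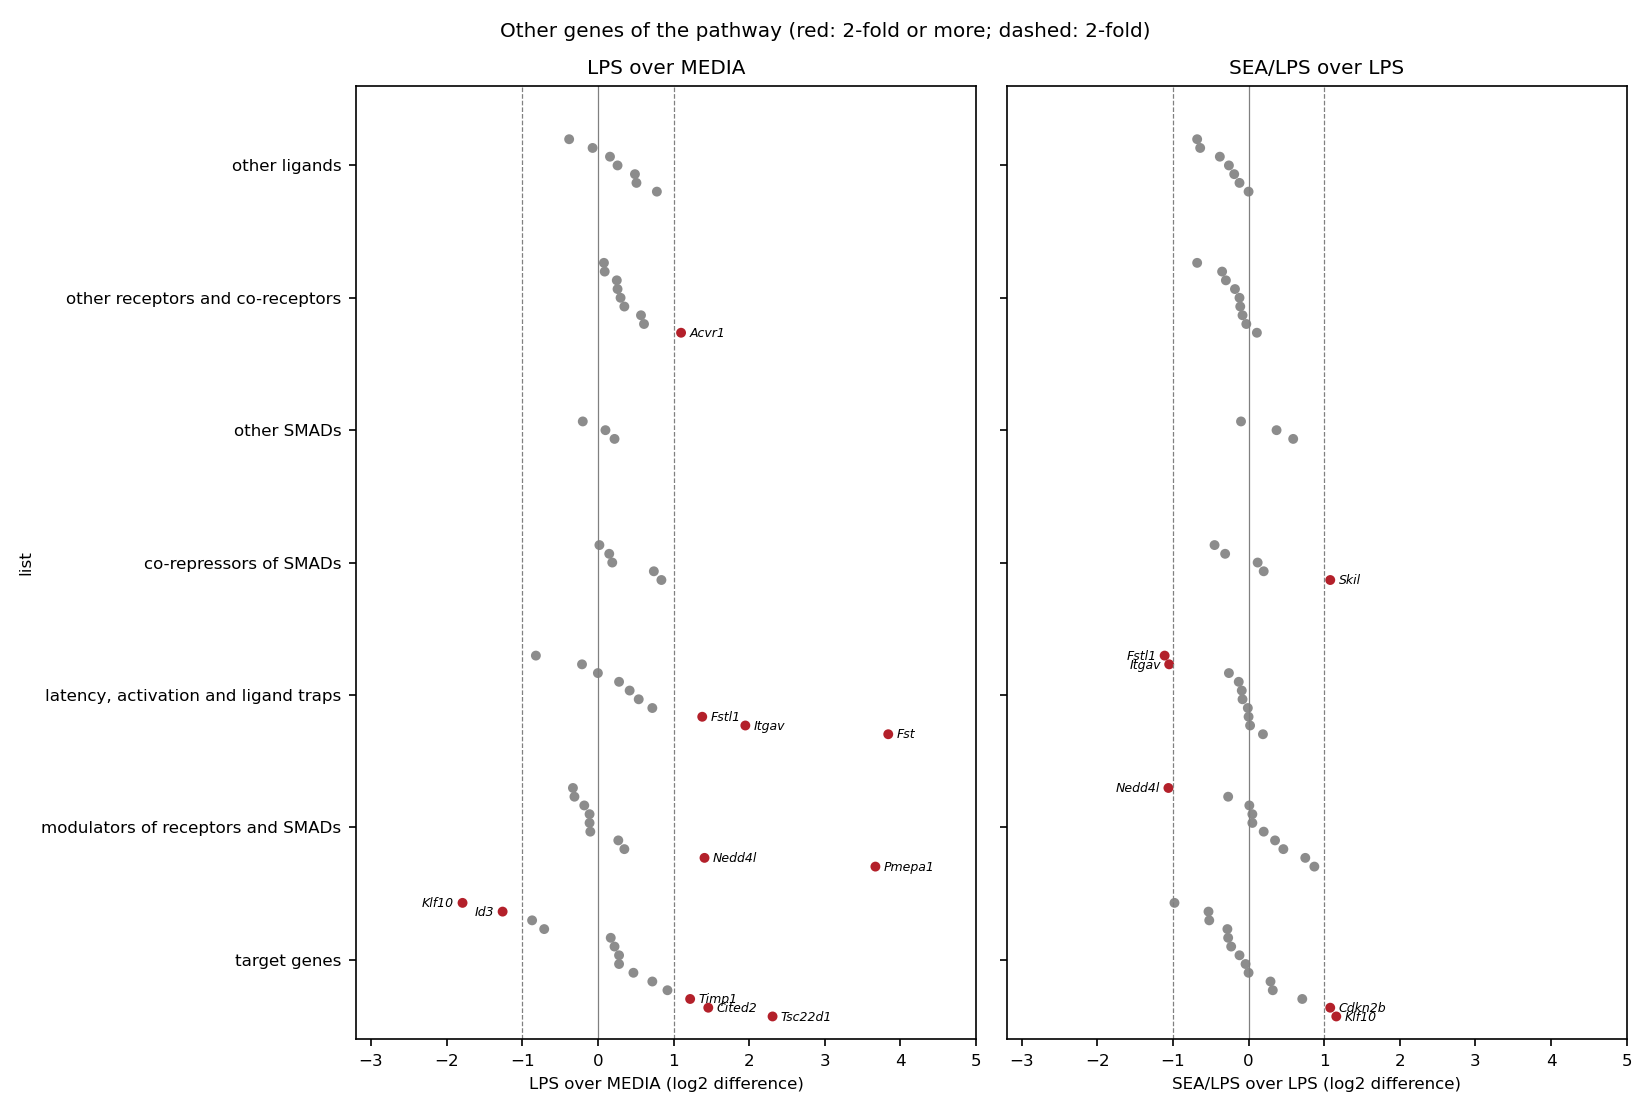
Log2 difference (x) of each of the 58 other measured pathway genes, grouped by list (y), for LPS over MEDIA on the left and SEA/LPS over LPS on the right. Red points with names are 2-fold or more apart, and dashed lines mark 2-fold. Fst at 3.84 and Pmepa1 at 3.67 lie farthest from 0 for LPS over MEDIA.

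Genes whose pattern over the 4 arrays was most like that of a member were found by the Euclidean distance between log2 signals centred on each gene's mean, among 7142 genes above the floor on all arrays. Nearest to Inhba were Slfn8 (distance 0.34), Parp12 (0.39) and Fst (0.45). Nearest to Ski were Tpcn1 (0.20), Gtf2i (0.24) and Unc119 (0.30). For Tgfbi they were Atp5g1 (0.13), Samd8 (0.14) and Ing2 (0.20), for Tgfbr1 they were Tex2 (0.03), Eif2ak3 (0.04) and Eif4b (0.08), and for Tgfbr2 they were Pkp2 (0.04), Nars (0.05) and B4galt6 (0.06). No member was among the nearest genes of another. With 4 arrays many genes share a pattern, and likeness here says nothing of function.

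**Figure D5:**
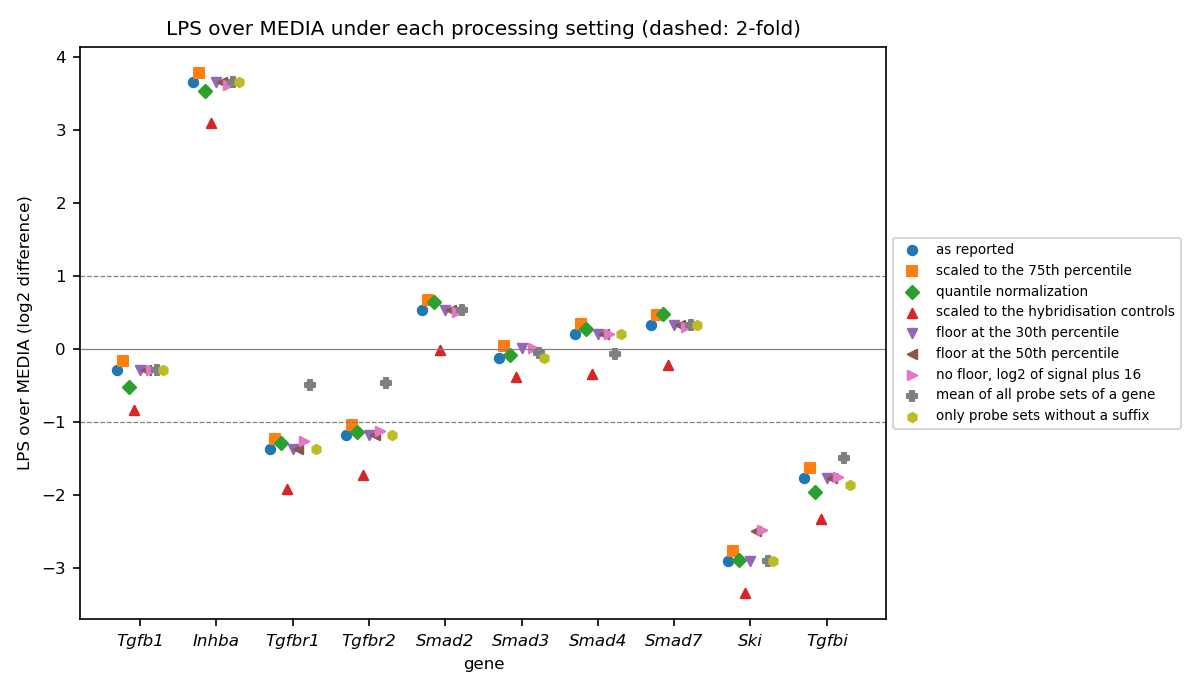
LPS over MEDIA log2 difference (y) of each of the 10 genes (x) as reported and under 8 other processing settings (marker shapes), with dashed lines at 2-fold. Inhba stays between 3.10 and 3.78, Ski between -3.34 and -2.47 and Tgfbi between -2.32 and -1.49, while Tgfbr1 and Tgfbr2 come within 2-fold when all their probe sets are averaged.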

How the data were processed

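The deposited table holds 1-colour array intensity values for 22690 Affymetrix probe sets in 4 samples. Judged from the values, the authors scaled every array to the same mean, with 2% trimmed means of 150.1 in each column; the sources used here do not name the software or background step. Probe sets were named by the platform annotation, with symbols updated through Entrez identifiers (20351 of 20380 probe sets with 1 symbol matched GRCm38.p6). Of the rest, 64 were array controls, 691 carried several symbols and 1555 none, and these were left out.

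Signals were floored at the 40th percentile (33.3) and log2 taken. A gene with several probe sets was represented by that of highest mean. A gene was measured if 1 array lay above the floor. With 1 array per group no test was made and precision is limited by the number of arrays. The difference code was tested on simulated data. Named genes were the 10 members, listed pathway genes 2-fold apart in any comparison or brightest in their list, and the 3 genes nearest to each member past 2-fold. Dendritic, macrophage, fibroblast or stroma, platelet, T, B, neutrophil and NK cell marker lists were read beside them. Members, lists and rules were chosen with earlier results of these data known. Promoter windows are RefSeq's (GRCm38.p6), which matched 7 of the 10 members. Alternatives covered 3 scalings, 3 floors and 2 choices of probe set. Python 3.11.15, numpy 2.4.6 and pandas 2.3.3 were used.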

Additional observations from a re-analysis of the deposited data

Results flagged for a closer look

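Some members had a difference of opposite sign in the pair of arrays without and the pair with the other stimulus. SEA gave -0.50 without LPS and 0.34 with LPS for Ski, -0.09 and 0.41 for Tgfbr2, -0.05 and 0.18 for Smad7, and 0.20 and -0.18 for Smad4. LPS gave -0.29 without SEA and 0.22 with SEA for Tgfb1, and 0.21 and -0.17 for Smad4. All these values lie within 2-fold, each rests on 1 array per group, and the difference between them was not tested.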

How the results depend on the processing

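The 10 member differences past 2-fold kept their direction in all 80 values recomputed over 8 settings (3 scalings, 3 floors, 2 choices of probe set), and 78 of 80 stayed past 2-fold. The exceptions were Tgfbr1 (-0.49) and Tgfbr2 (-0.46) in LPS over MEDIA with all probe sets averaged, as dimmer probe sets with smaller differences enter the mean. This took the count of members past 2-fold from 5 to 3. Some of those probe sets lay near or under the floor, but 1 of Tgfbr2 read 67.7 in MEDIA and 59.5 with LPS, a difference of -0.19. Of 310 values of members within 2-fold, 32 changed sign, came to 0 or moved off 0. A further 1 passed 2-fold, Tgfbr2 in SEA/LPS over MEDIA at -1.08 under scaling to the hybridisation controls. Other pathway genes past 2-fold numbered 1 in SEA over MEDIA, and 2 under quantile normalization, 3 under scaling to the hybridisation controls, 4 with a floor at the 30th percentile and 2 without a floor. In SEA/LPS over LPS they numbered 6, and 2 under quantile normalization, 3 with all probe sets averaged and 9 with a floor at the 30th percentile. In SEA/LPS over SEA they numbered 10, and 6 with only probe sets without a suffix, where fewer genes were measured. That count was 7 with all probe sets averaged, and 15 both when scaled to the 75th percentile and with a floor at the 30th percentile. In LPS over MEDIA they numbered 11, with 9 to 13 over the other settings, and in SEA/LPS over MEDIA 9, with 6 to 13. The cause was not tested in the other cases. Over all genes, LPS over MEDIA counts ranged from 284 to 771 higher and 578 to 2431 lower (574 and 799 as reported), and the share of these that was higher was 41.8% as deposited, 55.2% scaled to the 75th percentile and 10.5% scaled to the hybridisation controls. SEA over MEDIA counts ranged from 23 to 184 higher and 20 to 167 lower (61 and 60), SEA/LPS over LPS from 84 to 299 and 134 to 574 (132 and 329), SEA/LPS over SEA from 322 to 589 and 361 to 1142 (442 and 604), and SEA/LPS over MEDIA from 288 to 602 and 427 to 1462 (430 and 668). Smad3 and some receptor probe sets lie too near the floor for sizes to be read, and the sizes for Ski are approximate. No paired analysis was possible because each group has 1 array.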
